A study of Mus musculus with 15 samples.

Results

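The E2F transcription factors and their DP partners were examined in mouse lung tumours made as a model of small cell lung cancer, an aggressive neuroendocrine tumour. The 10 genes were E2f1 to E2f8, Tfdp1 and Tfdp2, taken by name, and every probe set annotated to one of them was read: 21 of the 45037 probe sets tested, which stand for 10 of 18193 genes. The samples form 3 groups. The 3 Rb/p53/p130 tumours, Rb Δ/Δ and p53 Δ/Δ with p130 Δ/Δ in addition, were lung tumours taken 6 months after nasal instillation of an adenovirus that carries Cre recombinase. The 10 Rb/p53 tumours (RbΔ/Δ; p53 Δ/Δ) were taken 8 to 12 months after the same infection, and the 2 normal lungs came from tumour-free adult wild-type mice. Only infected cells receive Cre from such a virus, so lung cells dissected with a tumour need not carry the deletions. How many of them do was not measured here. Numbers 1 to 10 name the Rb/p53 tumours and 11 to 13 the Rb/p53/p130 tumours, as in the labels. No label states that each array came from a separate mouse, so p-values measure the spread between these samples alone, and 2 normal lungs limit the precision of every comparison with them.

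E2F proteins bind DNA and switch on or hold back the genes of S phase and mitosis, and most of them bind only as a pair with a DP protein, which Tfdp1 and Tfdp2 encode. E2F1, E2F2 and E2F3 are the activators, which Rb binds and silences until cyclin-dependent kinases release them. E2F4 and E2F5 act mainly as repressors with the Rb relatives p107 and p130, E2F6 represses without any pocket protein through Polycomb-type complexes, and E2F7 and E2F8, the atypical members, repress as homodimers or heterodimers of each other without DP. Small cell lung cancer loses Rb and p53 almost without exception in patients, which is what the mouse genotype copies.

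Values are log2 levels made with robust multi-array averaging (RMA), which sets the arrays' distributions nearly equal. Array medians lay between 6.58 and 6.68. Each gene was read through its brightest probe set, and a change was called where limma's p-value, adjusted by Benjamini-Hochberg over all probe sets, was under 0.05. The tumours were neuroendocrine by their markers: 7 of 7 measured neuroendocrine genes were called higher in both tumour groups, with a mean level over the list of 10.57 to 10.73 in Rb/p53/p130 tumours, 10.34 to 11.25 in Rb/p53 tumours and 5.30 to 5.34 in normal lung. Markers of resident lung cells moved the other way: of 28 measured, 20 were called lower in Rb/p53/p130 tumours and 23 in Rb/p53 tumours, and their mean level was 9.04 to 9.11 in Rb/p53/p130 tumours, 8.21 to 9.88 in Rb/p53 tumours and 12.00 to 12.01 in normal lung. Of 10 immune and blood markers 4 were called lower in both tumour groups, with a mean level of 5.76 to 6.35 in Rb/p53/p130 tumours, 5.96 to 6.80 in Rb/p53 tumours and 7.15 to 7.56 in normal lung. Of 3 hepatocyte genes 1, Ttr, was called higher in both groups. Their mean was 11.96 in Rb/p53/p130 tumour 12, against 7.28 in both other tumours of that genotype, 6.56 to 9.58 in Rb/p53 tumours and 5.38 to 5.72 in normal lung. Without tumour 12 the counts of members called were the same as with it, 5 over normal lung for the Rb/p53/p130 group and 0 between tumour genotypes. In bulk tissue, fewer cells of a type and less RNA per cell cannot be told apart, and this holds for every level below.

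Both tumour groups carried more RNA of the activators E2f2 and E2f3, the atypical repressors and Tfdp1 than normal lung, and Rb/p53 tumours also more of E2f1. The pocket-protein repressors, E2f6 and Tfdp2 were not called in either group. In Rb/p53/p130 tumours 5 of the 10 genes were called higher than in normal lung and 0 lower (E2f2, E2f3, E2f7, E2f8 and Tfdp1), where 30.9% of all genes were called, 15.3% higher and 15.6% lower. In Rb/p53 tumours 6 of the 10 were called higher than in normal lung and 0 lower, these 5 and E2f1, where 38.8% of all genes were called, 18.3% higher and 20.5% lower. The median log2 change over the 10 genes was 1.51 for the Rb/p53/p130 group and 1.47 for the Rb/p53 group, against -0.02 over all genes in each comparison. Both comparisons share the 2 normal lungs, so their likeness is no independent evidence.

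**Figure D1:**
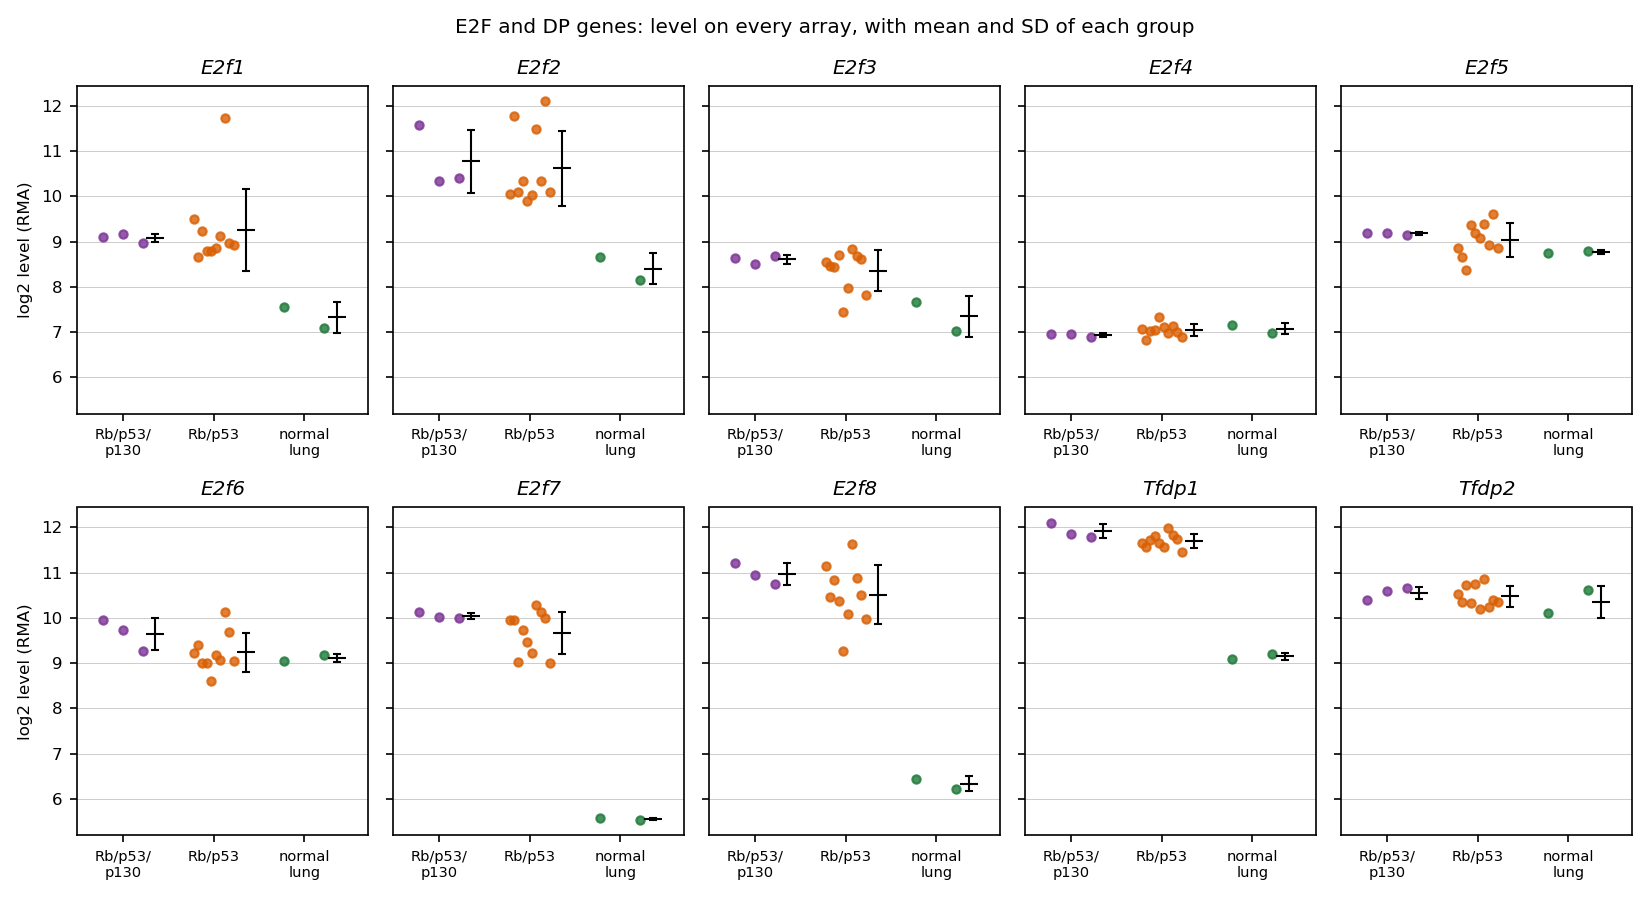
Level of each E2F and DP gene on every array (y axis: log2 level, RMA; 1 panel per gene; brightest probe set), with 1 point per array for the 3 Rb/p53/p130 tumours, the 10 Rb/p53 tumours and the 2 normal lungs, and the mean and SD of each group beside the points. E2f7, E2f8 and Tfdp1 show a wide gap between all tumours and normal lung, whereas the groups overlap for Tfdp2 and, between Rb/p53 tumours and normal lung, for E2f4; 1 Rb/p53 tumour stands apart at 11.73 for E2f1.

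E2f7 showed one of the widest gaps of the family. It stood at 10.12, 10.01 and 10.00 in the Rb/p53/p130 tumours and at 9.01 to 10.29 (median 9.84) in the Rb/p53 tumours, against 5.58 and 5.54 in normal lung. No tumour came near the lungs, whose level was not far above the lower quartile of all probe sets (at most 5.05 on any array). The change was 4.48 ± 0.34 in Rb/p53/p130 tumours (22.3-fold, 95% interval 13.4 to 37.2; limma adjusted p = 3.00e-07) and 4.11 ± 0.29 in Rb/p53 tumours (17.3-fold, 11.2 to 26.7; limma adjusted p = 8.37e-08), where the errors of changes are SE throughout.

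E2f8, its partner in the atypical pair, behaved alike. It was 11.22, 10.95 and 10.75 in the Rb/p53/p130 tumours and 9.27 to 11.63 (median 10.48) in the Rb/p53 tumours, against 6.45 and 6.22 in normal lung, with no overlap between tumours and lung. The change was 4.64 ± 0.49 in Rb/p53/p130 tumours (limma adjusted p = 6.58e-06) and 4.18 ± 0.42 in Rb/p53 tumours (limma adjusted p = 2.41e-06). A second, dim probe set of E2f8 (mean below 5 in every group) was also called higher, by 0.48 ± 0.16 in Rb/p53/p130 tumours (limma adjusted p = 0.0384) and by 0.48 ± 0.14 in Rb/p53 tumours (limma adjusted p = 0.0132).

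Tfdp1 encodes DP1, the partner through which E2F1 to E2F6 bind DNA. Its single probe set stood at 12.09, 11.86 and 11.79 in the Rb/p53/p130 tumours and at 11.45 to 11.99 (median 11.70) in the Rb/p53 tumours, against 9.09 and 9.21 in normal lung. It was high in every tumour and varied little among them: its SD over the 10 Rb/p53 tumours was 0.16, and only 16.3% of all genes had a lower one. The change was 2.76 ± 0.15 in Rb/p53/p130 tumours (6.79-fold, 5.42 to 8.50; limma adjusted p = 1.60e-08) and 2.55 ± 0.13 in Rb/p53 tumours (5.85-fold, 4.83 to 7.08; limma adjusted p = 3.85e-09).

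The second DP gene did not share this. Tfdp2 stood at 10.40, 10.59 and 10.66 in the Rb/p53/p130 tumours and at 10.19 to 10.86 (median 10.38) in the Rb/p53 tumours, against 10.11 and 10.61 in normal lung, and the ranges overlapped. Its change was 0.19 (95% interval -0.25 to 0.64; limma adjusted p = 0.568) in Rb/p53/p130 tumours and 0.11 (-0.26 to 0.49; limma adjusted p = 0.678) in Rb/p53 tumours. None of its 3 other probe sets was called in either comparison.

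The activators had smaller and less even changes. E2f2 stood at 11.57, 10.35 and 10.40 in the Rb/p53/p130 tumours and at 9.90 to 12.11 (median 10.21) in the Rb/p53 tumours, against 8.65 and 8.16 in normal lung, so that every tumour lay above both lungs. The change was 2.37 ± 0.65 in Rb/p53/p130 tumours (limma adjusted p = 0.0150) and 2.22 ± 0.55 in Rb/p53 tumours (4.66-fold, 2.05 to 10.6; limma adjusted p = 0.00627). Its other probe set gave 1.95 ± 0.72 in Rb/p53/p130 tumours, which was not called (limma adjusted p = 0.0623), and 2.08 ± 0.61 in Rb/p53 tumours, which was (limma adjusted p = 0.0169).

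E2f1 was 9.11, 9.16 and 8.97 in the Rb/p53/p130 tumours and 8.66 to 11.73 (median 8.95) in the Rb/p53 tumours, against 7.56 and 7.09 in normal lung. Again no tumour overlapped the lungs. The change in Rb/p53/p130 tumours, 1.75 ± 0.66, was not called (95% interval 0.34 to 3.16; limma adjusted p = 0.0666), while that in Rb/p53 tumours, 1.93 ± 0.56, was (limma adjusted p = 0.0151). All groups share one estimate of the spread, and 1 Rb/p53 tumour, number 8, widened it: without that tumour the Rb/p53/p130 change was the same size and was called (limma adjusted p = 4.65e-05). Another probe set gave 1.70 ± 0.63 in Rb/p53/p130 tumours (limma adjusted p = 0.0648) and 1.89 ± 0.54 in Rb/p53 tumours (limma adjusted p = 0.0141), and the remaining, dim one (mean 4.52 to 4.71 in the 3 groups) was called in neither comparison.

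E2f3 had the smallest called change. It stood at 8.64, 8.50 and 8.68 in the Rb/p53/p130 tumours and at 7.45 to 8.84 (median 8.52) in the Rb/p53 tumours, against 7.67 and 7.03 in normal lung. One Rb/p53 tumour, number 5, lay below the brighter lung, so the Rb/p53 and lung ranges overlapped. The change was 1.26 ± 0.35 in Rb/p53/p130 tumours (2.40-fold, 1.42 to 4.04; limma adjusted p = 0.0163) and 1.01 ± 0.30 in Rb/p53 tumours (2.01-fold, 1.29 to 3.14; limma adjusted p = 0.0175). Its other, dimmer probe set was called neither in Rb/p53/p130 tumours (limma adjusted p = 0.245) nor in Rb/p53 tumours (limma adjusted p = 0.314).

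Calls of the 3 activators depended on single lungs. Without normal lung 2 none of the 3 was called in either tumour group. Without normal lung 1 E2f2 was not called in Rb/p53/p130 tumours (limma adjusted p = 0.0546) and E2f1 was not called in Rb/p53 tumours (limma adjusted p = 0.0684), while E2f3 was called in both groups. Without Rb/p53/p130 tumour 11, the highest of its group, E2f2 was not called in Rb/p53/p130 tumours either (limma adjusted p = 0.064).

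The control probe sets of Gapdh, read near the 3′ end minus near the 5′ end as a measure of shortened RNA, differed by -0.03 to 0.08 in Rb/p53/p130 tumours and -0.07 to 0.36 in Rb/p53 tumours, against 0.72 and 0.88 in normal lung. With that difference as a covariate none of the 3 activators was called, and the errors grew; the covariate itself did not overlap between tumours and lungs. In Rb/p53/p130 tumours the change was then 2.15 ± 1.48 for E2f2 and 2.02 ± 0.76 for E2f3 (limma adjusted p = 0.506 and 0.183). In Rb/p53 tumours it was 1.15 ± 1.36 for E2f1, 2.01 ± 1.37 for E2f2 and 1.73 ± 0.71 for E2f3 (limma adjusted p = 0.72, 0.473 and 0.204). Set beside the values without the covariate, the changes of E2f2 were close, those of E2f3 larger and that of E2f1 smaller.

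The repressors that work with p107 and p130 were not called. E2f4, which has a single probe set here, stood at 6.97, 6.95 and 6.90 in the Rb/p53/p130 tumours and at 6.83 to 7.33 (median 7.04) in the Rb/p53 tumours, against 7.16 and 6.99 in normal lung. All of these were close to the array median, with the 3 Rb/p53/p130 tumours below both lungs and the Rb/p53 tumours on both sides. Its change was -0.14 (95% interval -0.42 to 0.15; limma adjusted p = 0.519) in Rb/p53/p130 tumours and -0.03 (-0.27 to 0.21; limma adjusted p = 0.884) in Rb/p53 tumours.

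E2f5 was 9.20, 9.20 and 9.15 in the Rb/p53/p130 tumours and 8.38 to 9.61 (median 9.00) in the Rb/p53 tumours, against 8.74 and 8.80 in normal lung. The 3 Rb/p53/p130 tumours lay above both lungs and the Rb/p53 tumours on both sides of them. Its change was 0.41 (-0.18 to 1.01; limma adjusted p = 0.324; 0.026, and so called, with these 2 groups fitted alone) in Rb/p53/p130 tumours and 0.27 (-0.24 to 0.77; limma adjusted p = 0.439) in Rb/p53 tumours. Its 3 probe sets did not share a sign: in Rb/p53 tumours another gave 0.31 (limma adjusted p = 0.160) and the last -0.21 (limma adjusted p = 0.372), neither of them called.

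E2f6 stood at 9.95, 9.74 and 9.26 in the Rb/p53/p130 tumours and at 8.61 to 10.13 (median 9.13) in the Rb/p53 tumours, against 9.05 and 9.17 in normal lung. It was above both lungs in the 3 Rb/p53/p130 tumours and not in all Rb/p53 tumours. The change was 0.54 (-0.18 to 1.26; limma adjusted p = 0.285) in Rb/p53/p130 tumours and 0.12 (-0.49 to 0.74; limma adjusted p = 0.788) in Rb/p53 tumours, and its second probe set was called in neither. With 2 lungs, changes up to the upper ends of these intervals are not excluded.

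**Figure D2:**
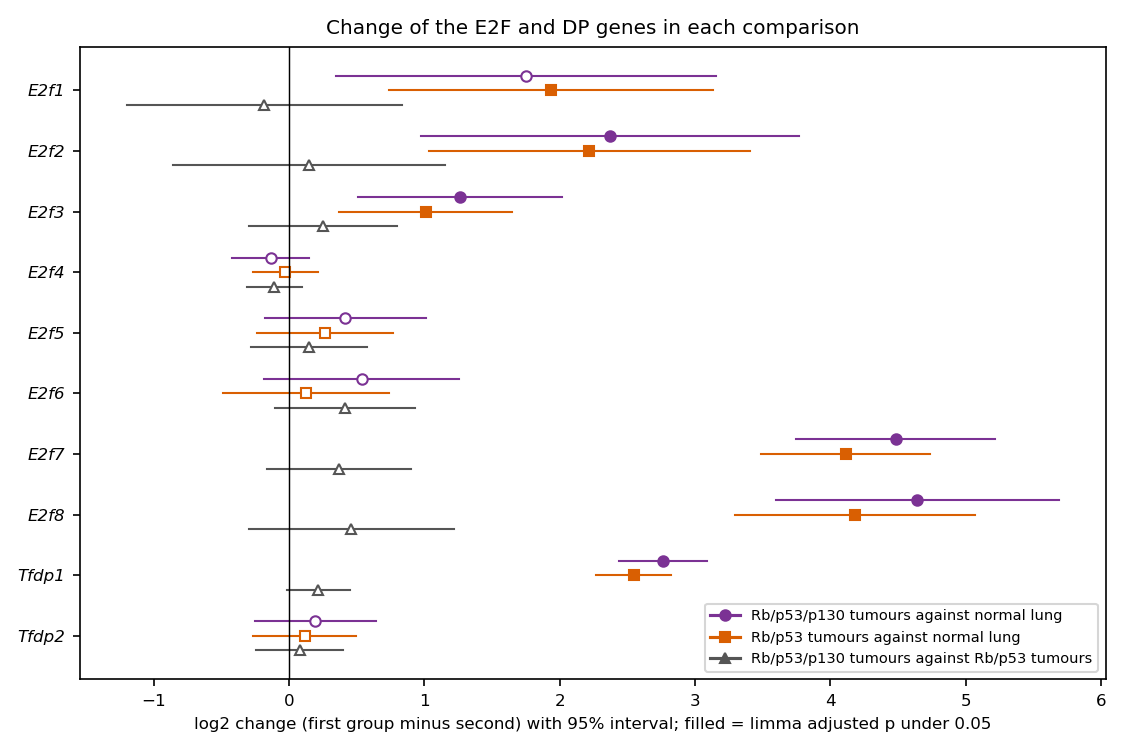
Change of each gene with its 95% interval (x axis: log2 difference, first group minus second; y axis: genes), with circles where Rb/p53/p130 tumours are set against normal lung, squares where Rb/p53 tumours are, and triangles between the tumour genotypes (Rb/p53/p130 minus Rb/p53); filled symbols have a limma adjusted p under 0.05. E2f7 and E2f8 lie beyond 4 against normal lung and Tfdp1 beyond 2, E2f4 and Tfdp2 lie near 0, and every triangle is open.

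Averaged by class, each tumour kept the same order. The mean shift from the lung mean was 1.64, 1.66 and 2.08 for the activators E2f1 to E2f3 in the Rb/p53/p130 tumours (lowest, median and highest), and 1.03, 1.63 and 2.56 in the Rb/p53 tumours. For the repressors E2f4 to E2f6 it was 0.12, 0.31 and 0.39 in the Rb/p53/p130 tumours and -0.18, 0.10 and 0.45 in the Rb/p53 tumours. For the atypical pair it was 4.43, 4.53 and 4.72 in the Rb/p53/p130 tumours and 3.42, 4.18 and 5.01 in the Rb/p53 tumours. The activators exceeded the repressors within every tumour, by 1.34 to 1.69 in Rb/p53/p130 tumours and by 0.96 to 2.15 in Rb/p53 tumours. These class means are a description of the members and were not tested. Counted by arrays, all Rb/p53/p130 tumours lay above both lungs for 8 of the 10 genes (32.8% of all genes) and below them for E2f4 (33.2% of all genes), and all Rb/p53 tumours lay above them for 5 (18.2% of all genes) and below them for 0 (20.2% of all genes).

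Many genes of the E2F family carry E2F elements in their own promoters. The RefSeq windows of 250 bases before to 50 bases after a gene start (assembly GRCm38.p6) were searched on both strands for 4 forms of the E2F element, TTTCCCGC, TTTCGCGC, TTTGGCGC and TTTGCCGC. There were 12 windows for 8 of the 10 genes, and 5 windows of 4 genes held an element (41.7%; the 2 Tfdp1 windows overlap and hold the same element), against 744 of 32851 windows in all (2.26%). The 4 genes were E2f2, E2f3, E2f7 and Tfdp1, all of which were called higher in both tumour groups. E2f4 and E2f5 had no window in the set searched, so nothing is read for them. Of the genes called in neither group only E2f6 and Tfdp2 were searched, and their windows held no element. One window of each of the 4 genes is printed, with the element in capitals.
E2f2 promoter window, chr4:136172024-136172323, plus strand: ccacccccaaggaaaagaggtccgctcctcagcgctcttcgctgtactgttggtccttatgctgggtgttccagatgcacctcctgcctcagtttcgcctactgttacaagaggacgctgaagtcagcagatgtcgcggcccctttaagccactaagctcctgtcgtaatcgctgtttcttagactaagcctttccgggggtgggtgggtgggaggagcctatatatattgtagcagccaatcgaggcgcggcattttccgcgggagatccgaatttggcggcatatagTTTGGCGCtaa
E2f3 promoter window, chr13:29986014-29986313, minus strand: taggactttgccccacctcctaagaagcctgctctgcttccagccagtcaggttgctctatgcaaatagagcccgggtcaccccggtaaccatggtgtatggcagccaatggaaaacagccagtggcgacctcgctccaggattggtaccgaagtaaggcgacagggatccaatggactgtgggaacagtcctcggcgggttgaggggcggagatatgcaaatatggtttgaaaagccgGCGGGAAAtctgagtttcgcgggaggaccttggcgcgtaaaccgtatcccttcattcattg
E2f7 promoter window, chr10:110745189-110745488, plus strand: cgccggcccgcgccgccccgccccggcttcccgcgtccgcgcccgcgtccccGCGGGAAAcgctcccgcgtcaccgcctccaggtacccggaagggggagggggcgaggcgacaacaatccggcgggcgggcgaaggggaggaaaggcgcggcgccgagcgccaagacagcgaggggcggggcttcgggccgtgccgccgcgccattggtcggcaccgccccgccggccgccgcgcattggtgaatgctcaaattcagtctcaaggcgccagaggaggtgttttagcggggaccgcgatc
Tfdp1 promoter window, chr8:13338501-13338800, plus strand: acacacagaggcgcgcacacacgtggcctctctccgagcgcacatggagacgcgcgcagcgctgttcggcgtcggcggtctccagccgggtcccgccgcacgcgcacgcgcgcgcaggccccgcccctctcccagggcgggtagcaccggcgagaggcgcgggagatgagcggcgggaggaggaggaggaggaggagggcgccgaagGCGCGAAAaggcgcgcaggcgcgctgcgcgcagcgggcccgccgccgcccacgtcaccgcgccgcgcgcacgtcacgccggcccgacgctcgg
The element reads TTTGGCGC in E2f2, with its first base 40 bases into the transcript. On the opposite strand it reads TTTCCCGC in E2f3 and E2f7, printed as GCGGGAAA from positions -11 and -198, and TTTCGCGC in Tfdp1, printed as GCGCGAAA from position -43, where -1 is the base before the start. E2f8, called higher in both tumour groups, had no such letters in its window, which says nothing of other windows or other forms of the element. The only window of E2f1, called higher in Rb/p53 tumours, had none either. Much of that window reads as protein code, so it does not stand for the E2f1 promoter and no absence is read for E2f1. The cell cycle homology element TTTGAA was searched likewise: it stood in the E2f3 window shown, upstream of the E2F element and not overlapping it, in another window of E2f2 and in that of E2f8, as in 17.9% of all windows. A match is a match of letters and not a measured binding site.

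Between the tumour genotypes none of the 10 genes was called. Loss of p130 takes away the main partner of E2F4 in resting cells, so this comparison asks whether its loss goes with other levels of the family. In Rb/p53/p130 against Rb/p53 tumours 0 of 10 were called by limma and 0 had an unadjusted p under 0.05, where 0.0715% of all genes (13 genes) were called. For no member did the 3 Rb/p53/p130 tumours lie wholly above or wholly below the Rb/p53 tumours (1.1% and 0.868% of all genes did). The smallest unadjusted p was that of Tfdp1, whose change was 0.22 (95% interval -0.02 to 0.45; limma adjusted p = 0.546).

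The intervals show what size of difference this comparison could have missed. They were -0.16 to 0.90 for E2f7, -0.30 to 1.22 for E2f8, -0.29 to 0.79 for E2f3 and -0.11 to 0.93 for E2f6. The second probe set of E2f6 had the opposite sign, with a change of -0.27 and an interval of -0.94 to 0.41. The bound was tighter for E2f4, -0.31 to 0.10, and wider for the uneven genes, -1.20 to 0.83 for E2f1 and -0.86 to 1.16 for E2f2. The Rb/p53/p130 tumours were also harvested earlier, so genotype and time after infection cannot be told apart.

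The proteins that E2Fs act with and the genes they act on were read from lists. Of all genes, 30.9% were called against normal lung in Rb/p53/p130 tumours and 38.8% in Rb/p53 tumours, the shares beside which each list stands. Of 11 pocket protein and DREAM or MuvB genes, which form the complexes that hold E2F4 at cell cycle genes, 8 were called higher and 1 lower in Rb/p53/p130 tumours (median change 1.41), and 7 higher and 1 lower in Rb/p53 tumours (median 1.20). Rbl1, which encodes p107, averaged 10.33 ± 0.09 in Rb/p53/p130 tumours and 10.11 ± 0.32 in Rb/p53 tumours, against 8.92 ± 0.00 in normal lung (SD), and rose by 1.41 ± 0.25 in Rb/p53/p130 tumours (limma adjusted p = 0.000642) and by 1.20 ± 0.21 in Rb/p53 tumours (limma adjusted p = 0.000454). The gene called lower was Rbl2, which encodes p130. It averaged 8.61 ± 0.21 in Rb/p53/p130 tumours (limma adjusted p = 0.0391) and 8.66 ± 0.42 in Rb/p53 tumours (limma adjusted p = 0.0178), against 9.57 ± 0.01 in normal lung. Rbl2 did not differ between tumour genotypes beyond its interval, -0.54 to 0.44, and Rb1 was higher than in lung by 1.56 ± 0.31 in Rb/p53/p130 tumours (limma adjusted p = 0.00192) and by 1.31 ± 0.27 in Rb/p53 tumours (limma adjusted p = 0.00154). No label places the Rb1 and Rbl2 probes with respect to the deletions, and their levels therefore say nothing about the genotypes.

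The activating MYB members of this list rose further. Mybl1, which encodes A-Myb, was 3.60 ± 0.44 higher in Rb/p53/p130 tumours and 3.09 ± 0.37 higher in Rb/p53 tumours. Mybl2, which encodes B-Myb, the MuvB partner of S and G2 phase, was 1.86 ± 0.50 higher in Rb/p53/p130 tumours and 1.97 ± 0.42 higher in Rb/p53 tumours. The MuvB subunit gene Lin9 was 3.04 ± 0.41 higher in Rb/p53/p130 tumours and 2.68 ± 0.35 higher in Rb/p53 tumours, and all of these were called by limma.

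The list of G1 cyclins, cyclin-dependent kinases and their inhibitors was split by type. Of 19 genes, 13 were called higher and 4 lower in Rb/p53/p130 tumours, and 12 higher and 4 lower in Rb/p53 tumours. The 4 lower genes were those of the D-type cyclins and of a kinase they activate. On the log2 scale Ccnd1 fell by 2.59, Ccnd2 by 3.13, Ccnd3 by 1.77 and Cdk6 by 2.52 in Rb/p53/p130 tumours. In Rb/p53 tumours Ccnd1 fell by 2.79, Ccnd2 by 2.94, Ccnd3 by 1.95 and Cdk6 by 2.12. The highest rises were those of Cdkn2a, which encodes the CDK inhibitor p16 and the p53 activator Arf, and of the cyclin genes Ccne2 and Ccna2. They were 5.62 ± 0.33, 5.58 ± 0.35 and 4.77 ± 0.37 in Rb/p53/p130 tumours, and 5.63 ± 0.28, 4.81 ± 0.30 and 4.50 ± 0.31 in Rb/p53 tumours. The E-type cyclin genes and Cdkn2a are themselves known E2F targets.

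Nearly all measured E2F targets of the G1/S list were called higher. Of 32 G1/S targets, which make the replication machinery and its nucleotides, 31 were called higher and 0 lower in both tumour groups, with a median change of 3.14 in Rb/p53/p130 tumours and 2.90 in Rb/p53 tumours. Clspn, a replication checkpoint adaptor, was 5.24 ± 0.38 higher in Rb/p53/p130 tumours and 4.92 ± 0.32 higher in Rb/p53 tumours. Dtl, whose protein marks Cdt1 for destruction, was 4.96 ± 0.43 higher in Rb/p53/p130 tumours and 4.48 ± 0.36 higher in Rb/p53 tumours. The helicase subunit gene Mcm6 was 4.60 ± 0.25 higher in Rb/p53/p130 tumours and 4.45 ± 0.21 higher in Rb/p53 tumours. All 24 of 24 mitotic genes were called higher in both groups, with a median change of 4.55 in Rb/p53/p130 tumours and 4.54 in Rb/p53 tumours. Orc1 was the 1 target not called in Rb/p53 tumours (0.31 ± 0.16; limma adjusted p = 0.152).

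Lists tied to single members were called at shares near that of all genes or below it (30.9% in Rb/p53/p130 tumours and 38.8% in Rb/p53 tumours), so their counts are a description only. Of 12 partners of E2F6 in its repressive complexes, 2 were called higher and 1 lower in Rb/p53/p130 tumours and 3 higher and 0 lower in Rb/p53 tumours, among them Pcgf6, a Polycomb subunit of that complex. Pcgf6 was higher by 1.71 ± 0.36 in Rb/p53/p130 tumours (limma adjusted p = 0.00263) and by 1.61 ± 0.30 in Rb/p53 tumours (limma adjusted p = 0.000864). Of 8 germline genes chosen as candidates for E2F6 repression, limma called 0 in Rb/p53/p130 tumours (0 at an unadjusted p under 0.05; lowest adjusted p 0.276) and 0 in Rb/p53 tumours (2 at an unadjusted p under 0.05; lowest adjusted p 0.0514). Of 8 apoptosis genes reported as E2F1 targets, 0 were called higher and 2 lower in both groups. Pmaip1, which encodes the p53-induced BH3 protein Noxa, fell by 2.55 in Rb/p53/p130 tumours and by 3.18 in Rb/p53 tumours, and Bcl2l11, which encodes Bim, fell by 0.92 in Rb/p53/p130 tumours and by 0.63 in Rb/p53 tumours. Of 10 genes of the multiciliated cell programme in which E2F4 and E2F5 work, 3 were called higher and 1 lower in both groups. The centriole genes Stil and Plk4 were among the higher in both. The lower was Foxj1, the master factor of motile cilia, which fell by 3.53 in Rb/p53/p130 tumours and by 3.16 in Rb/p53 tumours. Between the tumour genotypes limma called 0 of the 124 genes of these 8 lists, and 11 had an unadjusted p under 0.05. The share of all genes under that unadjusted threshold is not given here, so the 11 are a count only.

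The E2F genes differed widely in how much they varied between tumours. Over the 10 Rb/p53 tumours the SD was 0.90 for E2f1 and 0.83 for E2f2, larger than that of 95.1% and 93.9% of all genes. It was 0.66 for E2f8 and between 0.37 and 0.46 for E2f3, E2f5, E2f6 and E2f7. It was 0.23 for Tfdp2, 0.16 for Tfdp1 and 0.14 for E2f4, with only 10.2% of genes below E2f4.

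For E2f1 the spread came from 1 tumour. Rb/p53 tumour 8 stood at 11.73, while the other 9 averaged 8.99 ± 0.26 (SD) and reached 9.49 at most. The second E2f1 probe set showed the same, with 11.31 in tumour 8 and 8.85 ± 0.40 in the other 9. The nearest measured genes on chromosome 2, 2 on one side of E2f1 and 1 on the other, were also higher there by more than 1: 1700003F12Rik by 4.86, Actl10 by 1.71 and Pxmp4 by 1.42 over the mean of the other 9. Of the 10 measured neighbours on each side, 3 of 20 exceeded the other tumours' mean by at least 1, as did 2.94% of all genes, and 7 of 20 were highest in tumour 8, as were 10.6% of all genes. Farther out the differences were small or of either sign, at most 0.52 upward at Raly. DNA copy number was not analysed here.

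The G1/S and mitotic lists did not stand apart in tumour 8 as E2f1 did. Its mean over the G1/S targets was 10.74, within the range of the other 9 Rb/p53 tumours (10.02 to 10.99), and so was its mean over the mitotic genes, 11.02. Within it, 27 of the 32 G1/S targets and all 24 mitotic genes lay above the mean of the other 9, by a median of 0.23 and 0.40 (0.01 over all genes). Those 9 include tumours 3, 5, 6 and 10, whose mitotic means were the lowest of the 10 (10.12 to 10.36). Only 4 of the 32 and 1 of the 24 were highest in tumour 8, as were 10.6% of all genes. The 2 list means of tumour 8 ranked 2 and 3 of the 10. Its mean over the 8 apoptosis genes, 8.38, was the highest of the 10, with the next at 8.37.

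E2f2 was high in 3 Rb/p53 tumours and 1 Rb/p53/p130 tumour. Tumours 2, 7 and 9 stood at 11.78, 11.49 and 12.11 and tumour 11 at 11.57, while the other 7 Rb/p53 tumours averaged 10.12 ± 0.16 (SD). The second probe set showed the same 4 tumours on top, at 11.16, 11.10, 12.03 and 10.80, with the other 7 Rb/p53 tumours at 9.64 ± 0.23. These tumours were noticed for their E2f2 level, so the values are a description.

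The neighbours of E2f2 on chromosome 4 were read in the same way, after its values were seen. In tumour 9, 5 of the 20 nearest measured genes exceeded the mean of the 7 by at least 1 (1.34% of all genes did): Luzp1 by 2.14, Id3 by 1.84, the histone demethylase gene Kdm1a by 1.82, Zfp46 by 1.61 and Pnrc2 by 1.03. In tumour 7 it was also 5 of 20 (3.50% of all genes), led by the splicing factor gene Srsf10 at 1.82, and in tumour 2 it was 2 of 20 (2.02%), Id3 at 2.43 and Srsf10 at 1.25. Id3, the gene next to E2f2, was 0.98 below the mean of the 7 in tumour 7, so the 3 tumours did not share one pattern.

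**Figure D3:**
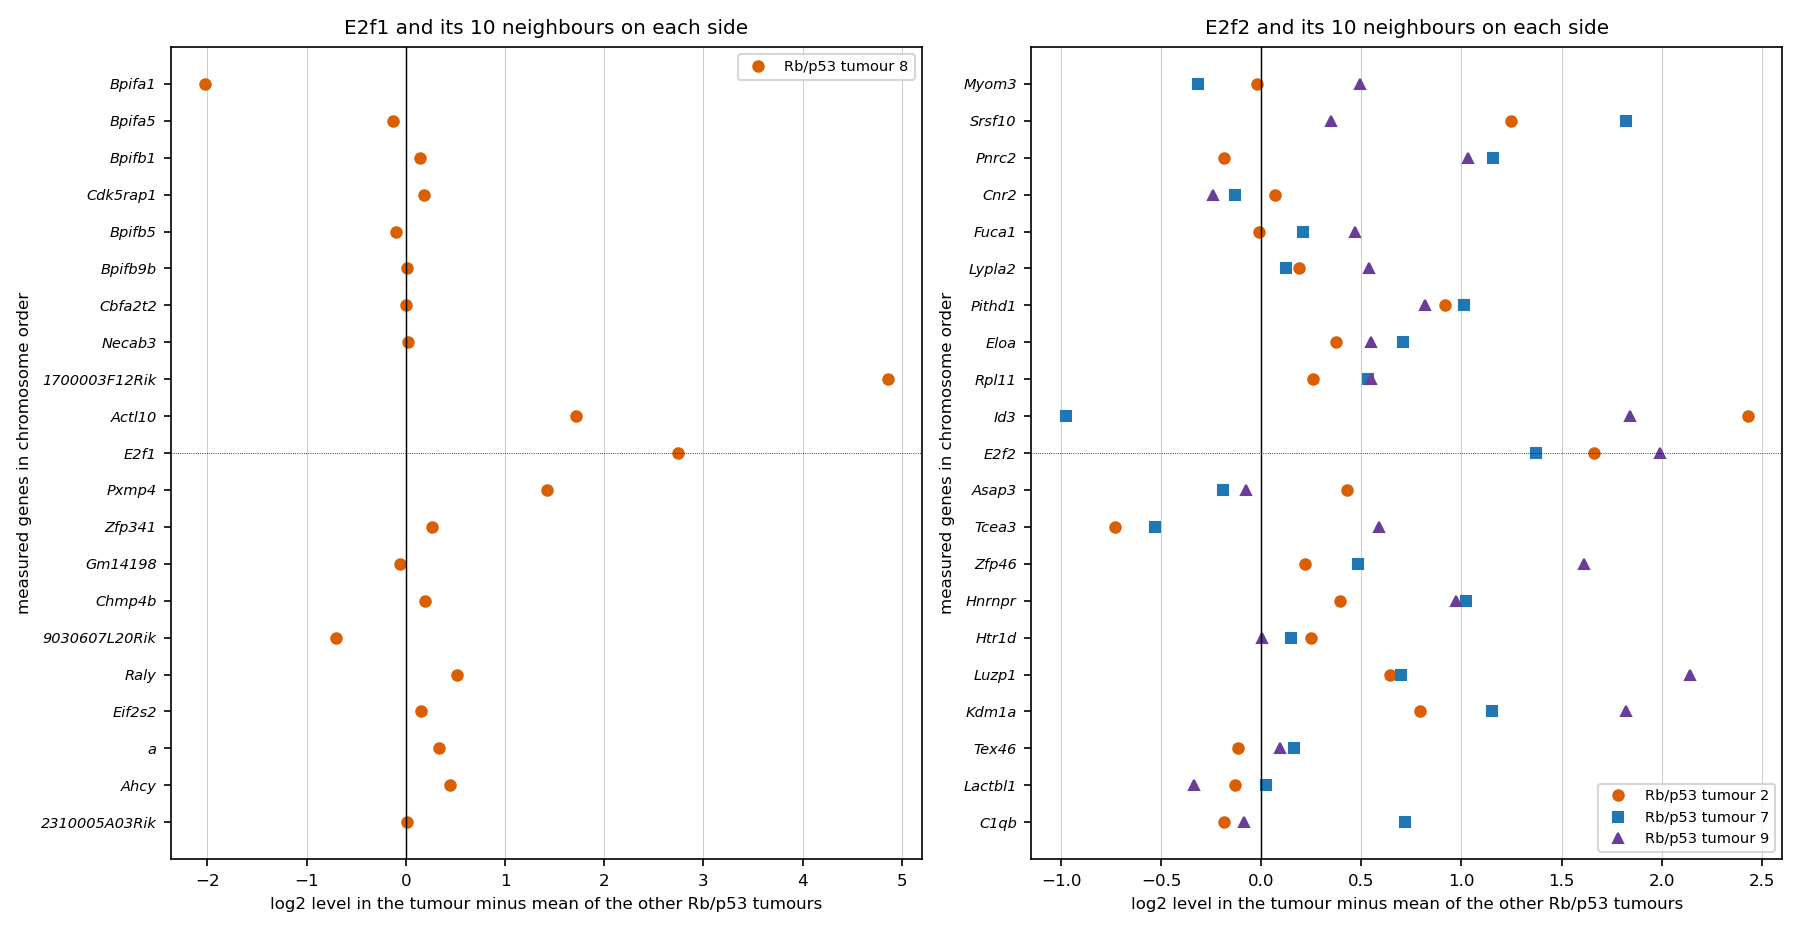
E2f1 (left) and E2f2 (right) with the 10 measured genes on each side in chromosome order (y axis), and the level in the named Rb/p53 tumours minus the mean of the other Rb/p53 tumours (x axis, log2); left, tumour 8 against 9 others; right, tumours 2, 7 and 9 against 7 others. On the left the genes at E2f1 stand out, up to 4.86 at 1700003F12Rik; on the right higher genes are spread over both sides of E2f2 and differ between the 3 tumours.

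The Rb/p53 tumours differed in their content of lung cell markers. The 10 tumours fell into 2 sets on the mean of the resident lung markers, tumours 3, 5, 6 and 10 at 9.59 to 9.88 and the other 6 at 8.21 to 8.91, a split seen in the data and not given by the labels. In the 4 tumours E2f7 stood at 9.01 to 9.46, against 9.73 to 10.29 in the 6, and E2f3 at 7.45 to 8.43, against 8.47 to 8.84, without overlap. The share of all genes without overlap between the 2 sets was not computed, so this is a description and no trait of these genes. The 4 were also lower in mitotic genes (means of 10.12 to 10.36, against 10.75 to 11.40). E2f8 ran at 9.27 to 10.84 in the 4 and 10.37 to 11.63 in the 6, and Tfdp1 at 11.45 to 11.73 and 11.56 to 11.99, with overlap. The part of lung cells in these levels was not tested. Without the 4 tumours the same counts of members were called as with them: 5 for the Rb/p53/p130 group and 6 for the Rb/p53 group over normal lung, and 0 between tumour genotypes.

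Because of that split, relations across tumours were read within the 6 alone. Of 20 relations, the 10 genes against the mean of the mitotic list and against that of the resident lung list, none had an adjusted p under 0.05 by a two-sided exact permutation test, for Pearson's r or Spearman's rho. The smallest p this test allows is 0.00278, which a single relation among 20 cannot bring under the threshold after adjustment, so the lack of calls says little. The closest was Tfdp1 with the mitotic list (r = 0.86, exact p = 0.0333, adjusted p = 0.198; rho = 0.771, exact p = 0.103), and r was 0.611 without the 2 tumours farthest from the median of the list mean. E2f7 with the resident lung list gave r = -0.792 (exact p = 0.0472, adjusted p = 0.198; rho = -0.886, exact p = 0.0333), and -0.0531 without the 2 farthest tumours. The few tumours then left span a narrower range of the list mean, so that value cannot show what the relation rested on.

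**Figure D4:**
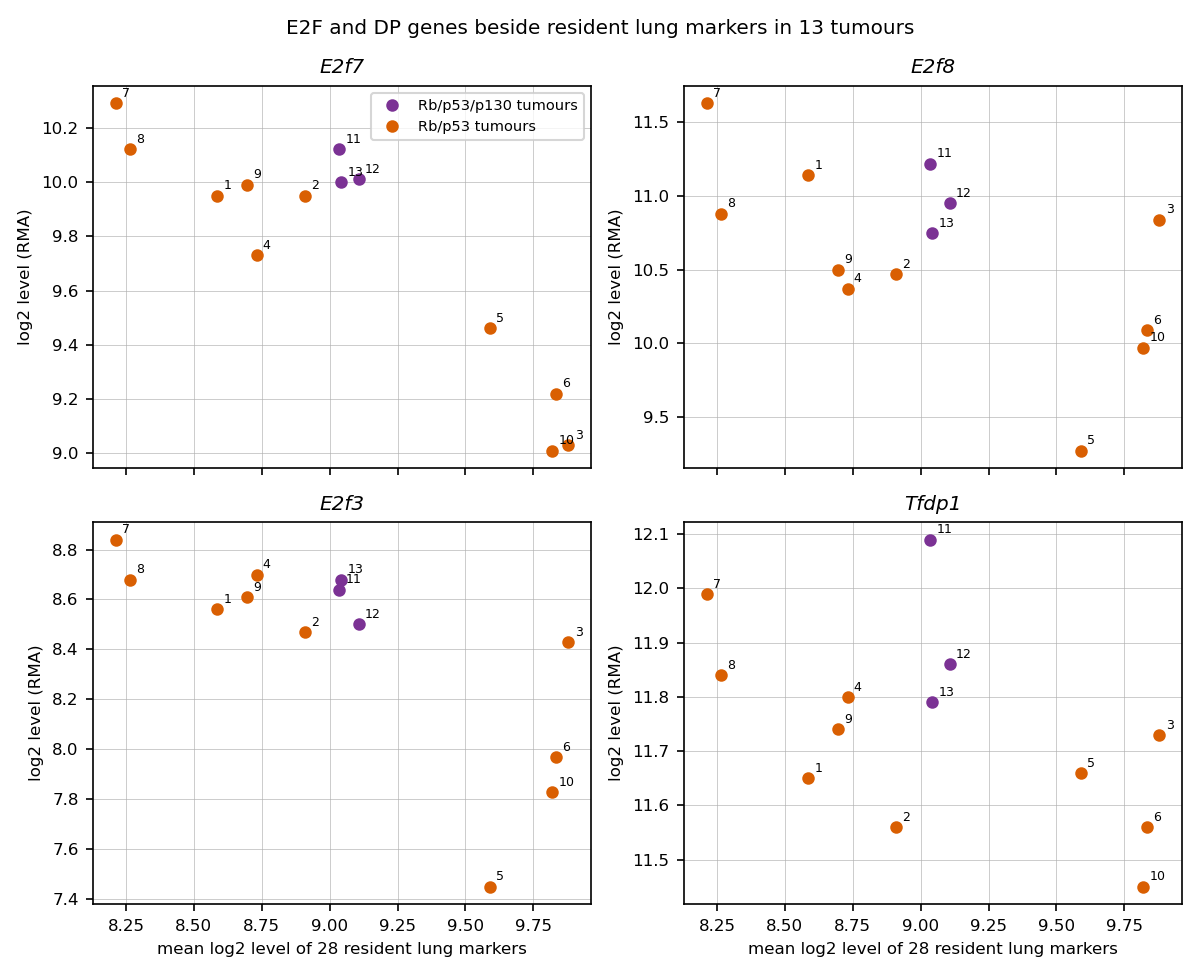
E2f7, E2f8, E2f3 and Tfdp1 (y axes: log2 level) against the mean log2 level of the 28 resident lung markers (x axis) in the 3 Rb/p53/p130 tumours and the 10 Rb/p53 tumours, each point labelled with its tumour number. The 4 Rb/p53 tumours at 9.59 to 9.88 on the x axis have the lowest E2f7 and E2f3, and the Rb/p53/p130 tumours lie at 9.04 to 9.11, between the 2 sets.

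The genes most like each member over the 13 tumours were named by Pearson's r among genes with an SD in the upper part of all genes; these values describe points that share arrays, and carry no test. For E2f7 they were Mdm1 (0.96), the condensin subunit Smc4 (0.94) and the Polycomb gene Bmi1 (0.94). For E2f3 they were Uhrf1, which reads hemimethylated DNA (0.93), the kinase subunit Cks2 (0.92) and Gatad1 (0.92). For E2f8 they were BC052040, Jazf1 and Zc3hav1l, at 0.95 to 0.96. For Tfdp1 they were the centromere gene Mis18a (0.90), the CTP synthase gene Ctps (0.90) and Cfap20dc (0.88). The 13 tumours include both sets of Rb/p53 tumours split by lung markers, and these values were not read within either set. Over the 10 Rb/p53 tumours the r of E2f7 was -0.97 with the resident lung list mean and 0.92 with the mitotic one.

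The genes most like E2f1 were Ush1c (0.97), Crhbp, which encodes a binding protein of corticotropin-releasing hormone (0.97), and D930028M14Rik (0.96), values that include tumour 8. Those most like E2f2 were the serine synthesis gene Psat1, its chromosome 4 neighbour Kdm1a and Tenm2, each at 0.89. Those most like E2f6 were Tmem229b (0.92), Rasgrp2 (0.86) and the ribonucleotide reductase gene Rrm2 (0.85). The first for E2f4, E2f5 and Tfdp2 were Sec61b (0.88), Trmt10c (0.92) and Coro2a (0.85), over small spreads of 0.13, 0.33 and 0.21 (SD over 13 tumours).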

How the data were processed

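Total RNA of 15 samples was amplified in 2 rounds for Affymetrix Mouse Genome arrays, according to the labels' protocols. The authors deposited RMA values on the log2 scale for every probe set, with RMA named in the submitters' processing notes and no version. RMA hides a shift shared by most genes, and amplification favours the 3′ end of RNA. Of 45101 probe sets 64 controls were left out; 34945 had 1 gene symbol, 932 several and 9160 none. Arrays hold no count, so their number limits the precision. All 3 groups entered 1 limma fit (lmFit, eBayes; limma 3.58.1 under R 4.3.3), a step tested on simulated data first. Named are all members, Rb1, Rbl1 and Rbl2, up to 4 called genes per list with the highest change, the neighbours of E2f1 and the 3 genes most like each member; Orc1, Cdk6, Ccnd1, Ccnd2, Ccnd3, E2f2's neighbours, Raly, Slc25a31 and Tex101 were added after their values were seen. Members and lists were chosen with earlier results of these data known. Alternatives covered normalisation, probe set choice, a filter on dim probe sets, the variance prior, the samples fitted, Gapdh and leaving out each array.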

Additional observations from a re-analysis of the deposited data

Results flagged for a closer look

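Each of the 21 member probe sets, each of the 12 list means and Rb1, Rbl1 and Rbl2 were checked for 1 sample far from the rest of the 10 Rb/p53 tumours, 36 values in all. In 4 of them the gap to the next tumour was a larger share of the whole range than chance gives in about 1 of 20 groups, and tumour 8 was the sample in all 4. No adjustment was made for the 36 values, so some such gaps arise by chance, and 2 of the 4 belong to the same gene. The 2 bright probe sets of E2f1 were highest there, at 11.73 (gap 0.730 of the range) and 11.31 (0.661). One dim probe set of Tfdp2 was lowest there, at 5.93 (0.577); the other Tfdp2 probe sets did not stand apart. The mean of the germline genes chosen as candidates for E2F6 repression was highest there, at 5.81 (0.822). In that list Slc25a31, which encodes a testis form of the ADP/ATP carrier, stood at 10.56 in tumour 8, against 3.70 to 4.75 in the other 12 tumours and 3.79 to 4.34 in normal lung, and Tex101, a germ cell surface protein gene, at 8.65 in tumour 8, against 4.89 to 5.44 in the other 12 tumours and 4.81 to 5.38 in normal lung. E2f6 itself was not among the 4 flagged values. It was also highest of the 10 in tumour 8, at 10.13 and, by its second probe set, 8.60. Any link between E2f6 and these genes was not tested.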

How the results depend on the processing

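E2f7 and E2f8 were called higher in both tumour groups against normal lung under every alternative run, Tfdp1 under every one except that without _s, _x and _a probe sets, which leaves it no probe set (4 of 9 genes called in Rb/p53/p130 tumours and 5 of 9 in Rb/p53 tumours), and 0 of the 10 genes was called between tumour genotypes under any. The count called in Rb/p53/p130 tumours, 5, was 3 with the Gapdh 3′ minus 5′ difference as a covariate and 3 to 6 when 1 array was left out in turn, with 3 without normal lung 2 and 4 without normal lung 1 or tumour 11. The count called in Rb/p53 tumours, 6, was 3 with the Gapdh covariate and 3 to 6 when 1 array was left out, again 3 without normal lung 2, and 5 without normal lung 1. With the Gapdh covariate 56 genes of the E2F pathway lists were called in Rb/p53/p130 tumours, against 90 of 124 without it, and 60 in Rb/p53 tumours, against 88 (in Rb/p53 tumours E2f2 was then 2.01 ± 1.37 and E2f3 1.73 ± 0.71). Leaving out 1 array gave 79 to 92 in Rb/p53/p130 tumours and 83 to 90 in Rb/p53 tumours. Fitted on the compared groups alone, E2f1 and E2f5 were called in Rb/p53/p130 tumours (limma adjusted p = 0.000687 and 0.026). Across all 10 Rb/p53 tumours 6 of 20 relations with the list means passed a permutation test, 3 to 8 when 1 tumour was left out, and 0 within the 6 tumours poor in lung markers, a setting chosen after seeing the data, in which a single relation cannot pass the adjustment. The labels' numbers 1 and 2 occur in both Rb/p53 tumours and normal lung, but same-numbered samples did not deviate together (correlations of -0.00 and -0.06). Deviations of 2 lungs from their own mean mirror each other, so these 2 values are not independent and cannot exclude a pairing. With the replicate block 6 members were again called. No paired analysis was possible for the other 2 comparisons because they share no numbers. Uncalled members changed sign under some settings, which is read as no direction.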
